A study of Mus musculus with 18 samples.

Results

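The comparison described here set the spleens of mice that received AOS without any other treatment against those of untreated mice, and covers 6 of the 18 RNA sequencing libraries of the series. All mice were of the ICR strain and 10 weeks old. The 3 control libraries came from untreated mice, and the 3 AOS libraries from mice given AOS at 10 mg/kg. Neither group had the high fat diet or streptozotocin (STZ, a toxin of insulin-producing cells) that the other 4 groups of the series had. Of those, HS had diet and STZ alone and HS_AOS also AOS at 10 mg/kg. The HS_AOSFMT and HS_conFMT groups had diet and STZ with material named FMT, from AOS at 10 mg/kg or from control. FMT, which the labels do not spell out, usually stands for faecal microbiota transplantation. The labels do not spell out AOS and give neither route, length of treatment, sex nor hour of collection. They do not state that the 3 libraries of a group came from separate animals either, so every p-value below sets a difference against the spread between libraries. In the main fit that spread was estimated from all 18 libraries. Of 19326 entries in the expression table, the 12969 with at least 1 FPKM in at least 3 of the 18 libraries were tested. FPKM counts fragments per kilobase of transcript, scaled to the mapped fragments of the library, so levels can be compared between genes. A difference is the coefficient of limma on log2(FPKM + 1), AOS minus control, with its standard error (SE). A gene is described as called where the Benjamini-Hochberg adjusted p, over all 12969 genes, was under 0.05.

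The spleen filters blood and hosts immune responses. Its red pulp holds macrophages that take up old red cells and, in the mouse, developing red cells, platelets' parent cells and granulocytes. Its white pulp holds B and T lymphocytes. Activated B cells can pass through germinal centres and become plasma cells, which secrete antibody in bulk. Plasma cells widen their endoplasmic reticulum (ER) through Xbp1, a transcription factor of the unfolded protein response, the programme by which a cell adds chaperones, folding enzymes and transport capacity to its secretory pathway. In bulk tissue, fewer cells of a type and less RNA per cell cannot be told apart, and this holds for every cell type list below.

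Defining markers of spleen were present in all 6 libraries. The B cell genes Cd79a (507.55 to 896.8 FPKM) and Ms4a1 (180.15 to 355.38) were lowest in control 1 and highest in control 3. The T cell gene Cd3e ran from 17.32 FPKM in control 1 to 41.86 in AOS 1. The red pulp macrophage genes Spic and Vcam1 ran from 36.47 to 57.07 and from 65.08 to 100.37 FPKM, and Stab2 of the sinus endothelium from 8 to 17.23. As a check of sex, the Y-linked genes Ddx3y (26.67 to 41.36 FPKM) and Eif2s3y (67.07 to 79.77) were expressed in all 6 libraries. Hba-a1, alpha globin, was the highest gene of every library. Haemoglobin genes took 34.3%, 27.1% and 21.5% of the summed FPKM in control 1, 2 and 3, and 23.3%, 25.6% and 17.2% in AOS 1, 2 and 3. Depth, estimated from the value of a single fragment in low genes, was 10100000 to 11200000 fragments over the 18 libraries. On the first principal component (33.0% of the variance) the controls lay at -31.5, -2.66 and 19.4 and the AOS libraries at 11.7, -3.1 and 2.89, so the controls were the wider group and control 1 and control 3 were its ends.

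limma called 1 of 12969 genes (0.00771%), Kap, which was lower with AOS. The next smallest adjusted p was 0.0892. At an unadjusted p under 0.05, 1048 genes (8.08%) were higher and 423 (3.26%) lower with AOS. In 1510 genes (11.6%) all 3 AOS values lay above all 3 control values, and in 621 genes (4.79%) below them. By sign alone 62.5% of genes were higher and 37.4% lower, with a median difference of 0.05, and every list below is to be read against these shares. The share of higher genes among those at unadjusted p under 0.05 was 71.2% and depended on scaling. It was 53.7% after median-of-ratios scaling, and 51.6% after scaling to equal totals without haemoglobin genes. Both scalings moved the median of all genes down by about 0.05.

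Sequences upstream of the genes that recur below are shown first, because several of the ER genes share a short element there. The ER stress response element (ERSE) is known as a site through which the unfolded protein response acts. It was searched on both strands as CCAAT, 9 bases of any kind and CCACG in the 250 bases before each RefSeq start. It occurred in 35 of 27025 genes (0.13%), and in 7 of the 15 unfolded protein response genes with a promoter in the table (46.7%), which were Hspa5, Hsp90b1, Pdia6, Calr, Canx, Dnajc3 and Syvn1. Of 11 plasma cell genes it occurred in Derl3 and Creld2, and it occurred in 0 of 18 ER translocation and 0 of 17 ER to Golgi genes. Letters in capitals mark the match, on either strand, in these windows from RefSeq (build GRCm38.p6), which end before the annotated transcripts of the gene begin.
Hsp90b1 (chr10:86705510-86705694, minus strand): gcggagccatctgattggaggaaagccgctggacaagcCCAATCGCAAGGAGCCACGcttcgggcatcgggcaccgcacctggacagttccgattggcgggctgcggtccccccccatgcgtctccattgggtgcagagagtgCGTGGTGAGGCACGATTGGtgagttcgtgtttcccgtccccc
Pdia6 (chr12:17266339-17266544, plus strand): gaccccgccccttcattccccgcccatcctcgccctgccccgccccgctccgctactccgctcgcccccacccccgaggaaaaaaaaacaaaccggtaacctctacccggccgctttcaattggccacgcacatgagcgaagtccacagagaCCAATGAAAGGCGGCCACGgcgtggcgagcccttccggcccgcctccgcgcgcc
Creld2 (chr15:88819396-88819645, plus strand): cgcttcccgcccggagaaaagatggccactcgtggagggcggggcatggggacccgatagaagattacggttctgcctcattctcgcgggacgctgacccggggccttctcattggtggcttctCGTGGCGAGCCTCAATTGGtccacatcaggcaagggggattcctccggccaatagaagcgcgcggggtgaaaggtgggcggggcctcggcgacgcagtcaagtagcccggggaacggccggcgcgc
Derl3 (chr10:75893148-75893397, plus strand): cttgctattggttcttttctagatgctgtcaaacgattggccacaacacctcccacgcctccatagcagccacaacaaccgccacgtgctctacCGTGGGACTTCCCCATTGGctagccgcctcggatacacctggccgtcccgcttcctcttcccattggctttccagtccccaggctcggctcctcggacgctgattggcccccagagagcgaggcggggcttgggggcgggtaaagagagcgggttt
The match lies on the strand of the gene in Pdia6, on the opposite strand in Creld2 and Derl3, and Hsp90b1 holds a match on each strand.

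The interferon-stimulated response element (ISRE), a known element of interferon-responsive promoters, was searched as TTTC, 2 bases of any kind and TTTC in the same way. It occurred in 936 of 27025 genes (3.46%) and in 10 of the 19 interferon response genes with a promoter in the table (52.6%). Bst2, which encodes tetherin, is shown because it is counted among both the interferon and the dendritic cell genes below, and the capitals mark 2 overlapping matches on the strand opposite to the gene.
Bst2 (chr8:71537473-71537722, minus strand): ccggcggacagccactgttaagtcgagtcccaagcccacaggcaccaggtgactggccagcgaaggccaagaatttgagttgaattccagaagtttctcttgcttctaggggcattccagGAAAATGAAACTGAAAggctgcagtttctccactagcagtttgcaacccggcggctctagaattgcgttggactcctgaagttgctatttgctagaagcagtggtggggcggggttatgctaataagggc
These matches describe letters only, and binding was not measured. List members were limited to tested genes while the 27025 genes were not, so the shares are not like for like. The unfolded protein response and interferon lists hold genes known for those responses, so their shares are not a result of the AOS comparison.

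Kap, the called gene, encodes a small androgen-regulated protein that is best known from the proximal tubule of the kidney (chromosome 6, 133849851 to 133853762, GRCm38). It stood at 13.33, 20.06 and 20.97 FPKM in control 1, 2 and 3, and was listed at 0 in AOS 1, 2 and 3. The difference was -4.23 (SE 0.28, adjusted p = 2.00e-06 by limma), a coefficient that depends on the pseudocount because the AOS level is listed at 0. Every control library was thus far above every AOS library, and above each of the 12 further libraries of the series, in which Kap did not exceed 1.67 FPKM. Outside the controls Kap reached 1 FPKM only in HS 3. It therefore passed the filter through the controls, where it is high, and its call is to be read with that limit. The call held in each of the alternatives, including those that left out any 1 of the 6 libraries.

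Some other kidney transcripts stood at trace levels in the same 3 libraries, while others were not confined to them. Without the filter on low values, limma called 7 of 18908 genes, among them Slc22a6, an organic anion transporter of the proximal tubule, Acsm2, a medium-chain acyl-CoA synthetase of that segment, Akr1c21, a hydroxysteroid dehydrogenase, and Mep1a, a meprin protease subunit. The others were Kap and, higher with AOS, Slc35f2 and Mamdc2, a MAM domain protein (0.18, 0.17 and 0.23 FPKM in the controls and 0.65, 0.64 and 0.83 with AOS). The kidney genes and Mamdc2 were looked at after their values were seen. Slc22a6 was at 0.08, 0.09 and 0.09 FPKM in control 1, 2 and 3 and listed at 0 in every AOS library. Akr1c21 was at 0.12, 0.26 and 0.19 FPKM in the controls and listed at 0 with AOS, and Mep1a at 0.09, 0.07 and 0.1 FPKM against 0. Acsm2 was at 0.08, 0.19 and 0.21 FPKM in the controls and at 0, 0 and 0.01 with AOS. All 4 were therefore detected in each control library and were at or next to 0 in each AOS library. Values this low rest on few fragments at the estimated depth, and their counting error was not modelled. Of the kidney list of 10 genes fixed for the comparison, only Kap and Napsa passed the filter. Napsa, an aspartic protease, was higher by sign with AOS, at 88.5, 94.65 and 131.38 FPKM in the controls and 127.37, 107.52 and 134.41 with AOS, and its groups overlapped (0.25, SE 0.16, adjusted p = 0.553 by limma). Miox, an inositol oxygenase, stood at 0.29, 0.15 and 0.15 FPKM in the controls and was listed at 0 with AOS. Aqp2 of the collecting duct was listed at 0 in all 6 libraries, and Lrp2 and Cubn, the scavenger receptors of the tubule, had overlapping groups. So did Slc34a1, at 0.27, 0.52 and 0.36 FPKM in the controls and 0.29, 0.09 and 0.1 with AOS. Slc5a2 was at 0.35, 0.32 and 0.22 FPKM in the controls, 0.04, 0.19 and 0.07 with AOS, and 0.37 in HS_conFMT 1. Umod was at 0.13, 0.03 and 0 FPKM in the controls and listed at 0 with AOS. The part of kidney RNA in the Kap difference was not tested.

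Transcripts of late spermatids, the cells that pack sperm DNA, followed the same groups. Tnp1, a transition protein that replaces histones in spermatids, was at 5.44, 39.49 and 3.47 FPKM in control 1, 2 and 3, and at 0, 0 and 0.26 in AOS 1, 2 and 3 (difference -3.28, SE 0.53, adjusted p = 0.0892 by limma). Prm1, protamine 1, was at 11.27, 85.59 and 6.56 FPKM against 0.57, 0.57 and 0 (-3.89, SE 0.66, adjusted p = 0.0892). Prm2 was at 6.93, 54.96 and 3.0 FPKM against 0.45, 0.73 and 0.15, and Tnp2 at 7.42, 70.87 and 3.23 against 0.18, 0.88 and 0.89. The groups did not overlap in these 4 genes, and control 2 was highest in each. Without control 2, limma called all 4 (adjusted p = 2.03e-05 for Tnp1 and 0.0121 for Prm1). Of 21 listed spermatid genes 8 were tested, and all 8 were lower with AOS (against 37.4% of all genes). At unadjusted p under 0.05, 4 of them were lower (against 3.26%). Tnp1, Tnp2 and Prm2 reached 1 FPKM only in the 3 controls, and Prm1 elsewhere only in HS 1 and HS_AOSFMT 2. These 4 genes passed the filter through the controls, where they are high, so their count and direction are only a description. The plot of Kap and the spermatid genes by library shows the 3 control libraries above the other groups for both kinds of transcript.

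**Figure D1:**
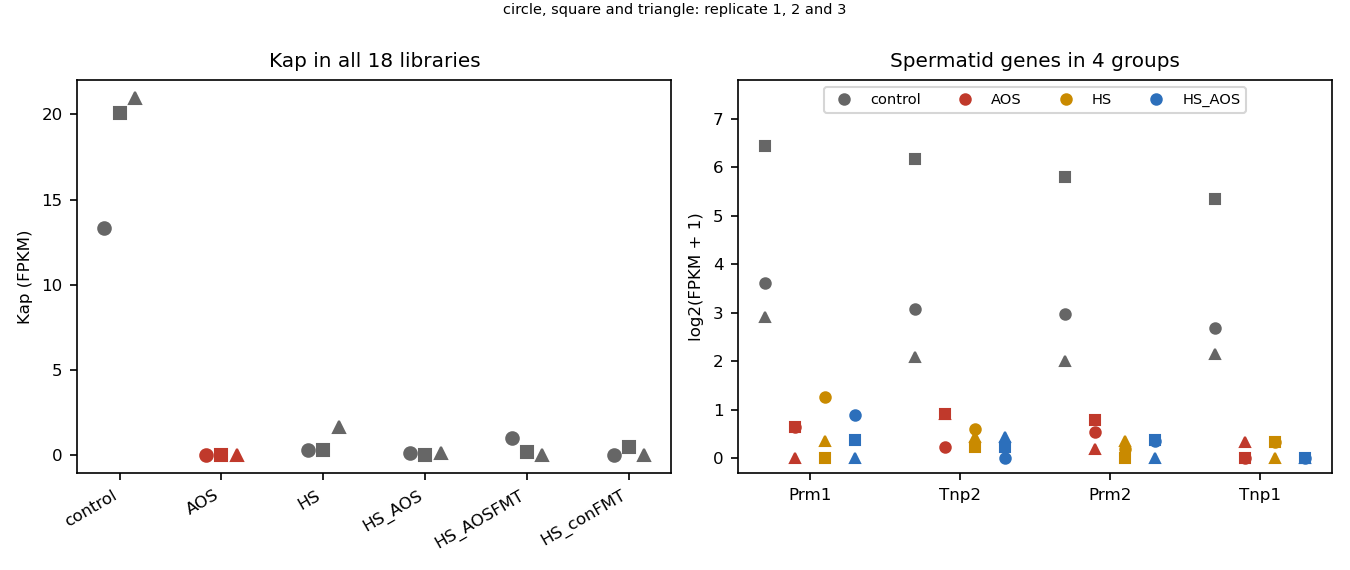
The left panel plots the FPKM of Kap in each of the 18 libraries by group, and the right panel log2(FPKM + 1) of 4 spermatid genes in the control, AOS, HS and HS_AOS libraries, with 1 point per library. Kap stands at 13.33 to 20.97 FPKM in the controls and at 0 in all AOS libraries, and control 2 (square) is the highest library for each spermatid gene.

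On the higher side, 0 genes were called, and the 10 with the smallest p had adjusted p of 0.0892 to 0.10 by limma. All 10 had AOS values above all control values, which a choice by the smallest p from these same values favours. Slc35f2, a solute carrier of the nucleotide sugar transporter family, stood at 1.49, 1.63 and 1.51 FPKM in the controls and 2.56, 2.42 and 2.41 with AOS (difference 0.45, SE 0.077, adjusted p = 0.0892). Slc35f2 was called without the filter on low values (adjusted p = 0.0268), with eBayes without trend and robust (0.0175) and without control 3 (0.0425). It had the smallest p of this direction and the SD of both groups was under 0.1 FPKM. Epcam, an epithelial adhesion molecule (chromosome 17, 87635979 to 87651129), stood at 1.85, 2.82 and 1.92 FPKM in the controls and 6.04, 4.69 and 6.91 with AOS (1.11, SE 0.19, adjusted p = 0.0892). All 3 AOS libraries were above all controls. Cyb5rl, a cytochrome b5 reductase-like gene, had means of 2.76 ± 0.295 and 4.49 ± 0.552 FPKM (SD, n = 3), and Calhm6, a calcium homeostasis modulator family member expressed by activated macrophages, 10.2 ± 0.819 and 15.6 ± 1.54. Manea, a Golgi endomannosidase that trims N-glycans, had means of 10.3 ± 0.535 and 14.7 ± 0.897 FPKM. The remaining genes of the 10 were Nr1d1, described with the clock genes, and Lman1, Hsp90b1, Creld2 and Txndc5, which serve the early secretory pathway.

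Plasma cell genes stood higher with AOS in every tested member. All 12 of 12 were higher (against 62.5% of all genes), 11 at unadjusted p under 0.05 (against 8.08%), 10 without overlap of the groups (against 11.6%), and 0 were called by limma. The median difference was 0.92, and 0.05 over all genes. Creld2, an ER-resident disulphide isomerase-like protein, stood at 25.46, 42.31 and 27.11 FPKM in control 1, 2 and 3 and at 77.01, 54.33 and 87.62 in AOS 1, 2 and 3 (difference 1.19, SE 0.23, adjusted p = 0.10). Sdc1, syndecan-1, the surface protein CD138 that defines plasma cells, stood at 3.63, 5.77 and 3.24 FPKM against 8.53, 7.09 and 9.57 (0.87, SE 0.18, adjusted p = 0.12). In both genes control 2 was the highest control and AOS 2 the lowest AOS library, and the groups did not overlap.

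Derl3, a derlin that helps to pass misfolded proteins out of the ER, had the largest difference of the list. It stood at 7.16, 18.16 and 7.09 FPKM in the controls and 36.15, 22.11 and 29.67 with AOS (1.46, SE 0.32, adjusted p = 0.16). Xbp1, the transcription factor that drives secretory expansion, stood at 50.07, 62.12 and 53.59 FPKM against 95.92, 71.54 and 95.69 (0.65, SE 0.14, adjusted p = 0.143). Again the gap between the groups lay between control 2 and AOS 2. Summed over the list, the level was 676.5, 1234 and 692 FPKM in the controls and 1784, 1408 and 1687 with AOS. Without control 2 the list median was 1.15 and limma called 12 genes over the whole table, among them the list members Creld2, Derl3, Sdc1 and Jchain, the joining chain of secreted IgA and IgM. With any other library left out, the list median was 0.77 to 1.00.

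Chaperones and folding enzymes of the unfolded protein response gave the same direction with smaller differences. All 18 of 18 were higher, 15 at unadjusted p under 0.05, 12 without overlap, and 0 were called, with a median of 0.36. Hsp90b1, the ER chaperone Grp94 (chromosome 10, 86690209 to 86705509), stood at 249.57, 349.74 and 314.32 FPKM in the controls and 548.73, 440.29 and 602.52 with AOS (0.80, SE 0.15, adjusted p = 0.10). Pdia6, a protein disulphide isomerase, stood at 82.66, 97.5 and 75.43 FPKM against 135.28, 110.78 and 144.33 (0.60, SE 0.14, adjusted p = 0.164). Both carry the ERSE match printed above, and in both AOS 2 was the AOS library closest to the controls. Manf, a secreted ER stress protein, had means of 52.4 ± 12.2 and 78 ± 7.99 FPKM (SD, n = 3), and Pdia4, a further disulphide isomerase, 51.5 ± 11.8 and 82.9 ± 13.1. Control 1 was the lowest of the 6 libraries for 14 of the 18 members and AOS 3 the highest for 14. Without control 1 the median was 0.24, with 8 members at unadjusted p under 0.05, and without AOS 3 it was 0.31, with 9. Txndc5, a thioredoxin-domain folding enzyme outside the list, stood at 69.01, 97.05 and 76.74 FPKM against 153.06, 117.71 and 177.93 (0.87, SE 0.17, adjusted p = 0.10), with AOS 2 again nearest to the controls.

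**Figure D2:**
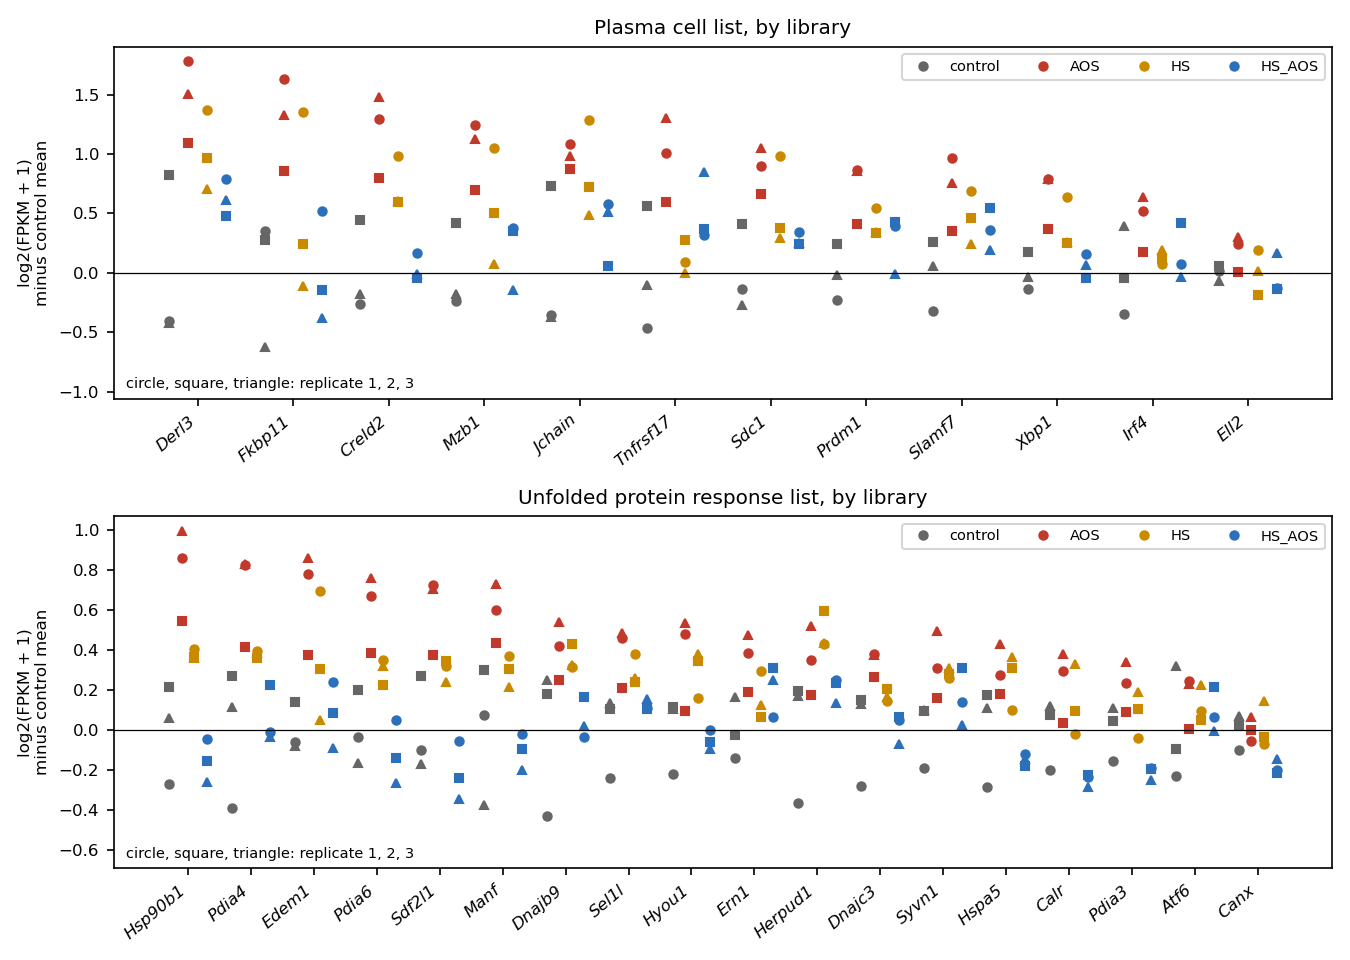
The upper panel plots the 12 plasma cell genes and the lower panel the 18 unfolded protein response genes, ordered by the AOS difference, as log2(FPKM + 1) of each library minus the mean of the 3 control libraries (line at 0). AOS points (red) lie above the control points (grey) without overlap for 10 of 12 and 12 of 18 genes, while the HS_AOS mean (blue points) lies below the HS mean (gold points) for 10 of 12 and 17 of 18.

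The steps before and after folding were examined with lists chosen after their members' values had been seen, so their counts are a description. Of 24 genes of ER translocation and N-glycosylation, 24 were higher, 17 at unadjusted p under 0.05 and 16 without overlap (median 0.26, 0 called by limma). Ssr2, a subunit of the translocon-associated complex, stood at 101.59, 100.59 and 85.79 FPKM in the controls and 145.56, 119.03 and 148.28 with AOS (0.51, SE 0.11, adjusted p = 0.131). Sec61a1, the pore of the translocon, had means of 43.4 ± 4.42 and 58.3 ± 6.17 FPKM, Spcs3 of the signal peptidase 42.4 ± 1.71 and 50.9 ± 0.304, and Rpn1 of the oligosaccharyltransferase 50.9 ± 1.29 and 64.7 ± 6.56. All 4 had groups that did not overlap.

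Of 20 genes of transport between ER and Golgi, 18 were higher, 12 at unadjusted p under 0.05 and 13 without overlap (median 0.20, 0 called). Lman1, the cargo receptor ERGIC-53, stood at 18.54, 19.79 and 18 FPKM in the controls and 31.23, 24.62 and 32.95 with AOS (0.62, SE 0.11, adjusted p = 0.0955). Its control values lay within 2 FPKM of each other and AOS 2 was the lowest AOS library. Without AOS 2 the difference was 0.74 and Lman1 was called (adjusted p = 0.0438). Kdelr2, which returns ER proteins from the Golgi, had means of 31.3 ± 1.17 and 39 ± 2.07 FPKM, Sec24d of the COPII coat 8.08 ± 1.19 and 11.8 ± 1.19, and Tmed9, a p24 cargo adaptor, 55.5 ± 3.66 and 69.5 ± 2.12. Ribosomal protein genes, whose products make up the cytosolic ribosome, were higher in 30 of 31 members, 14 at unadjusted p under 0.05 and 20 without overlap (median 0.18). Rpl11 stood at 1352.97, 1257.77 and 1323.21 FPKM in the controls and 1659.96, 1518.41 and 1688.93 with AOS (0.31, SE 0.079, adjusted p = 0.204). The ribosomal list median was 0.12 after median-of-ratios scaling. With AOS 1 left out 4 members and with AOS 3 left out 3 members were at unadjusted p under 0.05, against 19 without AOS 2.

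Germinal centre B cell genes were higher in 9 of 10 members, 4 at unadjusted p under 0.05 and 5 without overlap (median 0.66, 0 called). Fas, a death receptor of germinal centre B cells and other activated lymphocytes, stood at 9.07, 12.43 and 12.61 FPKM in the controls and 16.78, 17.35 and 15.95 with AOS (0.53, SE 0.16, adjusted p = 0.259). Mef2b, a transcription factor of germinal centre B cells, stood at 5.8, 9.27 and 2.29 FPKM against 13.41, 10.09 and 12.53 (1.08, SE 0.46, adjusted p = 0.401). Control 3 was the lowest library for 7 of the 10 members, and control 2 the control nearest to the AOS libraries for Mef2b. Without control 3 or without AOS 3, 1 member was at unadjusted p under 0.05, with medians of 0.53 and 0.61. Mybl1, a Myb family factor, had means of 5.43 ± 2.61 and 10.6 ± 1.01 FPKM, and S1pr2, which holds B cells in the centre, 6.89 ± 2.39 and 11.7 ± 1.36. Genes of B cell identity gave smaller values. All 15 were higher by sign, but 1 was at unadjusted p under 0.05, Cd72 (53.7 ± 5.38 and 66.7 ± 2.29 FPKM), 1 was without overlap, and the median was 0.15. Control 1 was the lowest library for 15 of these 15 genes, and without it the median was -0.02. Without control 3 it was 0.34, with 5 members at unadjusted p under 0.05. Pax5 had means of 55.5 ± 10.4 and 66.3 ± 4.71 FPKM and Cd79b 414 ± 84.2 and 471 ± 14, with overlapping groups.

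T cell genes were higher in 18 of 18 members, 6 at unadjusted p under 0.05 and 6 without overlap (median 0.32, 0 called). Cd28, the costimulatory receptor for CD80 and CD86, stood at 6.41, 10.38 and 11.23 FPKM in the controls and 17.81, 13.06 and 16.12 with AOS (0.71, SE 0.19, adjusted p = 0.215). Cd3e of the T cell receptor complex stood at 17.32, 29.16 and 34.04 FPKM against 41.86, 38.26 and 35.53, and Cd4 had means of 38.2 ± 11.2 and 53 ± 2.59. Control 1 was the lowest library for 18 of the 18 genes. Without control 1 the median was 0.11 and 1 member was at unadjusted p under 0.05, and without control 3 they were 0.50 and 14. Zap70, the kinase behind the receptor, had means of 14.2 ± 3.51 and 19.2 ± 0.369 FPKM.

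Of 8 regulatory T cell genes 7 were higher, 6 at unadjusted p under 0.05 and 6 without overlap (median 0.51, 0 called). The other, Lrrc32, which presents latent TGF-beta, was lower at unadjusted p under 0.05 with overlapping groups (5.98 ± 1.67 and 4.42 ± 0.306 FPKM, difference -0.34), and is named here after its values were seen. Il2ra, the alpha chain of the interleukin 2 receptor, stood at 1.49, 2.47 and 2.28 FPKM in the controls and 3.87, 2.94 and 2.93 with AOS (0.47, SE 0.15, adjusted p = 0.289). Icos, a costimulatory receptor, stood at 5.69, 7.28 and 6.17 FPKM against 10.18, 9.54 and 9.58 (0.55, SE 0.18, adjusted p = 0.307). Neither gene had overlapping groups, and the same held for Ikzf2, the transcription factor Helios (1.9 ± 0.596 and 3.08 ± 0.223 FPKM), and Tnfrsf4, the receptor OX40 (6.48 ± 1.15 and 9.87 ± 0.359). Without control 1 the median was 0.34, with 2 members at unadjusted p under 0.05. Natural killer and cytotoxic genes were higher in 14 of 16 members, 3 at unadjusted p under 0.05 (median 0.12). Tbx21, the transcription factor T-bet, stood at 3.91, 6.35 and 4.82 FPKM against 9.78, 7.4 and 10.29 (0.76, SE 0.21, adjusted p = 0.231). Ccl5, a chemokine of cytotoxic cells, had means of 123 ± 35 and 208 ± 37.3 FPKM without overlap. Gzmb, granzyme B, was at 6.51 and 8.93 FPKM in AOS 1 and 3 but at 2.91 in AOS 2, within the controls (2.69, 2.98 and 3.02). Klrd1, the receptor chain CD94, had means of 13.6 ± 0.7 and 15.7 ± 0.787 FPKM.

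Genes that load peptides onto MHC class I were taken from a list also chosen after values were seen, 3 of whose 18 members are shared with the unfolded protein response list. All 18 were higher, 14 at unadjusted p under 0.05 and 12 without overlap (median 0.44, 0 called). Psmb9, a catalytic subunit of the immunoproteasome, stood at 98.5, 115.62 and 97.2 FPKM in the controls and 175.56, 156.7 and 176.2 with AOS (0.70, SE 0.16, adjusted p = 0.169). Tap2, a subunit of the peptide pump of the ER, stood at 40.03, 50.24 and 46.52 FPKM against 65.66, 60.41 and 64.17 (0.47, SE 0.10, adjusted p = 0.148). Nlrc5, the transactivator of class I genes, stood at 8.3, 12.25 and 10.09 FPKM against 19.43, 15.88 and 21.39 (0.83, SE 0.20, adjusted p = 0.188). The groups were apart in all 3 genes, and the 3 AOS libraries lay closer together for Psmb9 and Tap2 than for the plasma cell genes. Psme2, of the proteasome activator PA28, had means of 184 ± 24.9 and 262 ± 24.8 FPKM. MHC class II genes had 0 of 10 members at unadjusted p under 0.05 (median 0.19, 8 higher, 0 called by limma). Without control 3 the median was 0.37, with 4 members at that level. Only the class I list was chosen after values were seen, so the counts of the class I and class II lists are not like for like.

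Interferon response genes were higher in 22 of 23 members, 7 at unadjusted p under 0.05 and 4 without overlap (median 0.69, 0 called), but the 3 AOS libraries were unlike each other. Summed over the list they stood at 903.7, 629.1 and 1824 FPKM in AOS 1, 2 and 3, against 677.4, 607.6 and 541.8 in control 1, 2 and 3. AOS 3 was the highest library for 21 of the 23 members, and AOS 2 lay among the controls. Zbp1, a sensor of Z-form nucleic acid, stood at 24.48, 24.32 and 23.91 FPKM in the controls and 51.69, 35.29 and 88.41 with AOS (1.14, SE 0.32, adjusted p = 0.243). Bst2, whose upstream window is printed above, stood at 71.62, 84.18 and 64.78 FPKM against 127.81, 101.29 and 241.38 (0.99, SE 0.30, adjusted p = 0.262). Both put AOS 3 far above the rest, yet kept AOS 2 above the controls. Cxcl9, a chemokine induced by interferon gamma, gave another order, with 9.29, 11.26 and 8.56 FPKM in the controls and 14.23, 20.84 and 19.1 with AOS, and Gbp2, a guanylate-binding protein, had means of 22.4 ± 5.25 and 32.2 ± 5.36. Without AOS 3 the list median was 0.32, with 3 members at unadjusted p under 0.05. Without AOS 2 it was 0.98, with 17 members.

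Macrophage and dendritic cell lists held few members past the unadjusted threshold. The complement component C1qa, a product of red pulp macrophages, stood at 103.15, 97.0 and 119.11 FPKM in the controls and 125.79, 157.46 and 147.0 with AOS (0.43, SE 0.18, adjusted p = 0.408). C1qb (99.5 ± 7.12 and 127 ± 16 FPKM), C1qc (101 ± 2.5 and 129 ± 15.4) and Cd5l, an apoptosis inhibitor secreted by macrophages (16 ± 0.746 and 23.6 ± 5.98), were also without overlap. In the red pulp macrophage list as a whole 11 of 15 members were higher, 1 at unadjusted p under 0.05 (median 0.18). In the dendritic cell list 10 of 14 were higher, 2 at unadjusted p under 0.05, which were Bst2 and Irf8, a factor of dendritic cell development (96.1 ± 12.3 and 120 ± 13.5 FPKM). Itgax, the integrin CD11c, had means of 15.9 ± 4.57 and 20.4 ± 2.09 FPKM with overlapping groups, and Esam, lower by sign, 16.3 ± 0.814 and 14 ± 1.37. Marginal zone macrophage genes (5 of 7 higher), Toll-like receptors and their adaptors (21 of 24 higher) had 0 members at unadjusted p under 0.05, and limma called 0.

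Neutrophil genes were lower with AOS, in values set largely by control 1. The 6 tested primary granule genes were all lower, 6 at unadjusted p under 0.05 (against 3.26% of all genes) but 0 without overlap, with a median of -1.84 and 0 called by limma. Elane, neutrophil elastase, stood at 304.29, 91.14 and 15.49 FPKM in control 1, 2 and 3 and at 13.69, 31.62 and 18.25 in AOS 1, 2 and 3 (-1.88, SE 0.78, adjusted p = 0.393). Prtn3, proteinase 3, stood at 238.71, 66.4 and 8.75 FPKM against 8.91, 16.8 and 11.84, and Ms4a3, a marker of granulocyte progenitors, at 60.23, 16.08 and 2.33 against 2.52, 4.71 and 2.51. In each gene control 1 was the highest and control 2 the next, while control 3 lay within or below the AOS libraries. Prss57, a further granule protease, had means of 2.04 ± 2.25 and 0.4 ± 0.113 FPKM.

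Secondary and tertiary granule genes were lower in 12 of 13 members, 12 at unadjusted p under 0.05 and 0 without overlap (median -1.71). Chil3, a chitinase-like protein, stood at 490.76, 141.99 and 27.75 FPKM in the controls and 22.06, 47.26 and 25.87 with AOS, and Mmp9, gelatinase B, at 41.25, 13.37 and 5.38 against 3.33, 6.34 and 4.28. Control 1 and control 2 were again the highest libraries, and control 3 lay between AOS 2 and the other AOS libraries. Hp, haptoglobin, had means of 58.9 ± 52.3 and 12.2 ± 2.75 FPKM and Itgam, the integrin CD11b, 16.8 ± 10.4 and 8.41 ± 1.05. Genes of mature neutrophils were lower in 11 of 12 members, 9 at unadjusted p under 0.05 and 5 without overlap (median -0.94). Csf3r, the receptor for the granulocyte growth factor G-CSF, stood at 44.24, 20.04 and 16.46 FPKM against 9.8, 10.84 and 14.79 (-1.01, SE 0.33, adjusted p = 0.295). Cxcr2, the receptor that calls neutrophils into tissue, stood at 19.39, 8.65 and 7.01 FPKM against 4.51, 5.1 and 6.68 (-0.87, SE 0.26, adjusted p = 0.256). These receptors, unlike the granule genes, had all controls above all AOS libraries, with control 3 and AOS 3 next to each other. Clec4d, a C-type lectin, had means of 3.55 ± 1.59 and 1.63 ± 0.401 FPKM and Mrgpra2b, a Mas-related receptor, 9.52 ± 8.42 and 2 ± 0.431.

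The neutrophil values moved with the libraries left out. Without control 1 the list medians were -0.85, -0.87 and -0.54 for primary granules, later granules and mature cells, with 0, 1 and 3 members at unadjusted p under 0.05. Without AOS 1 the counts were 0, 5 and 5. Without control 3 they were -2.93, -2.55 and -1.21, and limma then called 49 genes over the whole table, 43 of them lower with AOS, among them Elane, Prtn3, Ms4a3, Chil3, Mmp9, Hp and Itgam. The summed level of the mature neutrophil list was 10500, 2803 and 588.7 FPKM in control 1, 2 and 3, and 392.2, 981.3 and 582.6 in AOS 1, 2 and 3. Whether the difference belongs to AOS or to the make-up of control 1 and control 2 was not tested, and 3 libraries a group leave a single value no lower exact permutation p than 0.10.

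**Figure D3:**
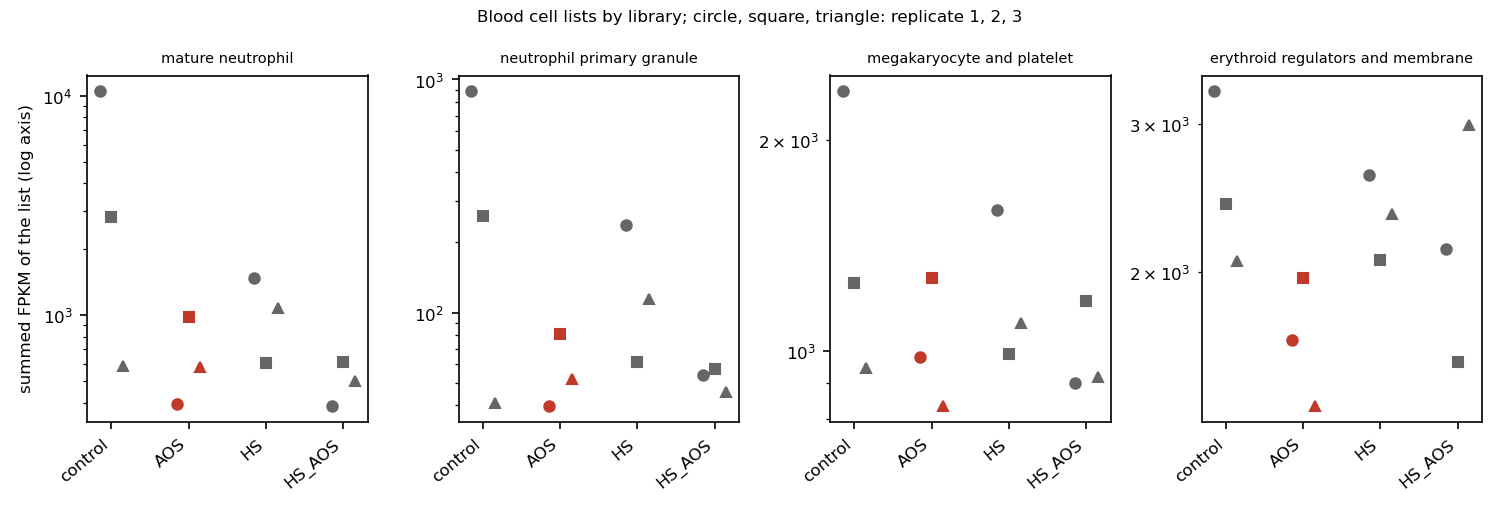
Each panel plots the summed FPKM of a blood cell gene list on a log axis for each library of the control, AOS, HS and HS_AOS groups, with AOS in red. Control 1 (circle) is the highest control in all 4 panels, at 10500 FPKM for mature neutrophil genes, and control 3 (triangle) lies among the AOS libraries for both neutrophil lists.

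Red cell and platelet genes were also lower and also highest in control 1. All 21 tested erythroid regulator and membrane genes were lower, 1 at unadjusted p under 0.05 but 14 without overlap (against 4.79%), with a median of -0.61 and 0 called. Tal1, a transcription factor of erythroid and megakaryocyte precursors, stood at 72.24, 52.71 and 45.83 FPKM in the controls and 33.87, 38.42 and 28.53 with AOS (-0.73, SE 0.33, adjusted p = 0.428). Tfrc, the transferrin receptor, stood at 179.99, 119.89 and 104.19 FPKM against 78.3, 93.45 and 72.6. The groups were apart in both, with control 3 the lowest control and AOS 3 the lowest library. Kel, a red cell membrane glycoprotein, had means of 141 ± 45.9 and 79.3 ± 11.2 FPKM, and Nfe2, an erythroid and megakaryocyte factor, 98.3 ± 35.5 and 59.8 ± 8.69. Haem synthesis genes were lower in 11 of 11 members, 2 at unadjusted p under 0.05 and 4 without overlap (median -0.52), and without control 1 the median was -0.28. Slc25a37, mitoferrin, which brings iron into mitochondria, stood at 512.93, 364.97 and 293.44 FPKM against 224.95, 277.49 and 181.83. Ppox (85.6 ± 28.4 and 55.7 ± 7.9 FPKM), Cpox (127 ± 23.1 and 79.2 ± 10.9) and Fech (206 ± 46.4 and 138 ± 27), late enzymes of the pathway, were without overlap too.

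Megakaryocyte and platelet genes were lower in 16 of 16 members, 5 at unadjusted p under 0.05 and 2 without overlap (median -0.48). Tubb1, the beta tubulin of platelets, stood at 80.18, 42.04 and 35.69 FPKM in the controls and 31.19, 34.36 and 26.6 with AOS (-0.68, SE 0.22, adjusted p = 0.309). Selp, P-selectin, stood at 10.51, 4.35 and 4.0 FPKM against 3.38, 3.71 and 2.9. Control 1 was the highest library for 16 of the 16 genes, and without it the list median was -0.11 with 0 members at unadjusted p under 0.05. Without control 3 it was -0.79, with 14 members. Thbs1, thrombospondin 1, had means of 33.5 ± 14.8 and 20.8 ± 2.9 FPKM and Vwf, von Willebrand factor, 12.6 ± 5.23 and 8.24 ± 1.56. Cell division genes (median -0.14, 18 of 24 lower) and DNA replication genes (median -0.09, 18 of 22 lower) had 0 members at unadjusted p under 0.05 or without overlap, and limma called 0. Control 1 was the highest library for 24 of the 24 division genes, and without it both medians were above 0 (0.07 and 0.08).

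The lower genes with the smallest p, after Kap and the spermatid genes, were of a different kind. Timp3, an inhibitor of matrix metalloproteinases (chromosome 10, 86300372 to 86349506), stood at 34.9, 32.55 and 39.87 FPKM in the controls and 21.96, 26.94 and 23.9 with AOS (-0.54, SE 0.10, adjusted p = 0.10). Sord, sorbitol dehydrogenase of the polyol pathway, stood at 23.65, 21.11 and 18.12 FPKM against 14.94, 15.36 and 12.87 (-0.51, SE 0.10, adjusted p = 0.118). All controls stood above all AOS libraries by more than 2 FPKM in both, and without control 1 the differences were -0.56 for Timp3 and -0.42 for Sord. Sqor, a mitochondrial sulphide oxidase, had means of 15.2 ± 2.52 and 10.5 ± 0.88 FPKM, and Gucy1b1, the beta subunit of the nitric oxide receptor, 10.8 ± 0.945 and 7.39 ± 1.3. Tpm1, a tropomyosin, stood at 169.5, 155.94 and 144.72 FPKM against 117.69, 138.1 and 120.79 (-0.32, SE 0.074, adjusted p = 0.183). Contractile genes of smooth muscle were lower in 9 of 11 members, 5 at unadjusted p under 0.05 and 3 without overlap (median -0.28). Tpm2 stood at 30.23, 24.94 and 23.24 FPKM against 20.03, 20.6 and 17.49 (-0.41, SE 0.11, adjusted p = 0.230), and Tagln, transgelin, had means of 88.2 ± 4.37 and 71.3 ± 7.12. Smtn, smoothelin (9.81 ± 1.03 and 7.81 ± 1.16 FPKM), and Actg2, enteric gamma actin (6.51 ± 2.51 and 4.32 ± 0.894), had overlapping groups. Collagen and matrix genes, with Timp3 as the only member at unadjusted p under 0.05, had a median of -0.03 with 13 of 24 lower.

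Among metabolic and stress lists, single genes stood out more than lists did. Cholesterol synthesis and uptake genes were higher in 17 of 20 members, 3 at unadjusted p under 0.05 (median 0.13). Idi1, an isomerase of the isoprenoid pathway, stood at 7.35, 10.03 and 10.35 FPKM in the controls and 13.95, 14.36 and 17.54 with AOS (0.68, SE 0.25, adjusted p = 0.340). Mvk, mevalonate kinase (4.86 ± 0.476 and 6.33 ± 0.533 FPKM), and Insig1, which holds back sterol synthesis (13.5 ± 1.91 and 16.9 ± 0.183), were also without overlap, while Srebf2, the sterol-sensing factor, overlapped (35.3 ± 6.07 and 40.2 ± 1.3). Antioxidant and Nrf2 target genes were lower in 18 of 21 members, 5 at unadjusted p under 0.05, with 2 higher at that level (median -0.20). The higher members were Prdx1, a peroxiredoxin (213 ± 13.6 and 261 ± 5.48 FPKM), and Slc7a11, the cystine importer (2.31 ± 0.686 and 3.64 ± 0.15). Among the lower were G6pdx, glucose-6-phosphate dehydrogenase (44.4 ± 16.5 and 31.6 ± 0.315 FPKM), and Nfe2l2, which encodes Nrf2 itself (52.2 ± 2 and 47.1 ± 0.411). The list was therefore not of 1 direction among the members with the smallest p.

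Heat shock genes were lower by sign in 11 of 14 members, with 0 at unadjusted p under 0.05 and 0 called by limma, and the controls spread widely. Hspa1b, an inducible Hsp70, stood at 15.42, 51.26 and 140.52 FPKM in control 1, 2 and 3 and 14.62, 17.05 and 28.73 in AOS 1, 2 and 3 (-1.29, SE 0.84, adjusted p = 0.568). Its neighbour Hspa1a, a near-identical copy whose reads may be split between both, stood at 6.48, 20.99 and 49.83 FPKM against 5.65, 5.85 and 11.32. Control 1 lay with the AOS libraries and control 3 was the highest of the 6, the reverse of the order in the neutrophil genes. Hspb1 (29.1 ± 11 and 19.4 ± 3.05 FPKM) overlapped, and Hspa4l (11.3 ± 0.749 and 8.66 ± 0.975) did not. The list median was -0.21, and 0.01 without control 3. Without control 1 it was -0.50, with 4 members lower at unadjusted p under 0.05. In HS_AOS against HS all 14 members were lower (against 36.8% of all genes), with a median of -0.75. There, 10 were at unadjusted p under 0.05 (against 1.32%), and limma called 0.

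Circadian clock genes, which oscillate over the day, had 9 of 16 members higher and 2 at unadjusted p under 0.05 (median 0.06). Nr1d1, the repressor Rev-erb alpha (chromosome 11, 98767932 to 98775333), stood at 1.61, 1.99 and 2.13 FPKM in the controls and 5.68, 6.09 and 3.15 with AOS (1.00, SE 0.18, adjusted p = 0.0955). The groups did not overlap, AOS 3 was the AOS library nearest to the controls, and without it Nr1d1 was called (1.25, adjusted p = 0.00841). Without AOS 1 it was not called (0.90, adjusted p = 0.484 by limma). Bhlhe41, the repressor Dec2, had means of 2.27 ± 0.484 and 3.88 ± 0.669 FPKM without overlap, and Nfil3 3.52 ± 0.438 and 2.97 ± 0.114. Nr1d1 was not high only with AOS, as its mean was 9.5 FPKM in HS_conFMT, a group without AOS, and 4.97 in AOS. The hour of collection was not given, and its part in the Nr1d1 values was not tested.

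Lists of neighbouring tissues gave sums that varied widely between libraries of a group. Pancreatic acinar genes, enzymes of digestive juice, summed to 2758, 449.4 and 35.93 FPKM in control 1, 2 and 3 and 67.51, 1069 and 658.9 in AOS 1, 2 and 3, so the groups overlapped. Pancreatic endocrine genes, insulin included, summed to at most 0.15 FPKM in the 6 libraries and 0 of them were tested. Adipocyte genes summed to 57.36, 294 and 221.4 FPKM against 167.4, 483.7 and 239.6, with control 1 the lowest and AOS 2 the highest for 11 of the 11 members. All 11 were higher with AOS, 1 at unadjusted p under 0.05 (median 0.77, and 0.12 without control 1). Hepatocyte genes summed to 22.96, 299.4 and 263.7 FPKM in the controls and 91.55, 68.13 and 22.74 with AOS, and 8 of 10 were lower, 0 of them at unadjusted p under 0.05 (median -1.25). In these 3 lists the order of the libraries was neither that of the plasma cell genes nor that of Kap. The mesothelial list, which marks the capsule, summed to 19.6, 57.49 and 32.1 FPKM against 23.48, 45.27 and 35.23.

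**Figure D4:**
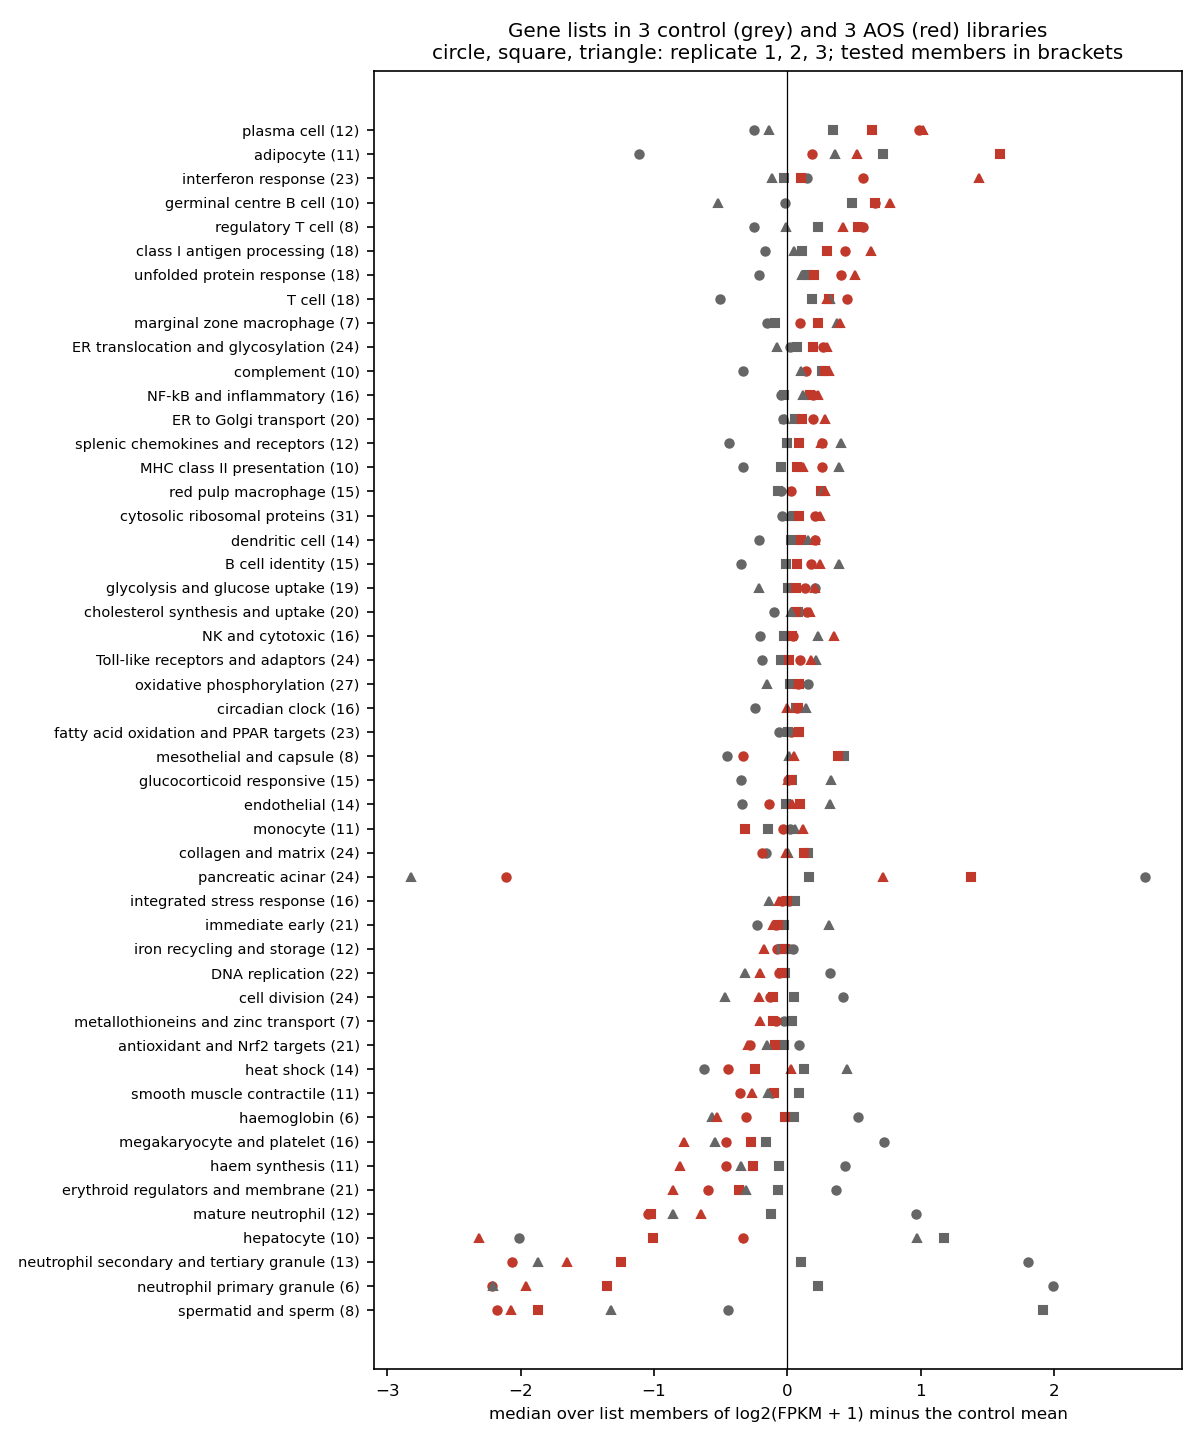
Each row is a gene list with at least 6 tested members (number in brackets), ordered by the AOS difference, and each point is the median over the members of log2(FPKM + 1) minus the control mean in 1 library. The AOS libraries (red) lie above all control libraries (grey) for the plasma cell list, and control 1 (grey circle) lies far to the right for the neutrophil and platelet lists.

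Whether the AOS difference was the same under diet and STZ was examined with the HS and HS_AOS libraries, which share no library with the comparison above. In HS_AOS against HS, limma called 0 of 12969 genes, with 503 (3.88%) higher and 171 (1.32%) lower at unadjusted p under 0.05 (5.2% in all). By sign 63.2% were higher and 36.8% lower. The test of the difference itself, the interaction, called 1 gene (0.00771%), Kap, which was already low in HS (0.31, 0.31 and 1.67 FPKM) and stood at 0.15, 0 and 0.15 in HS_AOS. The Kap interaction was 3.63 (SE 0.40, adjusted p = 0.00195 by limma), and with a pseudocount of 0.1 it was not called (adjusted p = 0.241). In the interaction 294 genes (2.27%) were higher and 480 (3.7%) lower at unadjusted p under 0.05 (5.97% in all), and by sign 50.5% were higher.

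Secretory pathway genes had the smallest p on the lower side of the interaction. Hsp90b1 differed by 0.80 without and by -0.53 with diet and STZ, an interaction of -1.33 (adjusted p = 0.123). Creld2 differed by 1.19 and -0.69 (interaction -1.88, adjusted p = 0.15), Pdia6 by 0.60 and -0.42 (-1.02, adjusted p = 0.237), Lman1 by 0.62 and -0.22 (-0.84, adjusted p = 0.237), and Dnajb11, an ER co-chaperone of BiP, by 0.51 and -0.29 (-0.81, adjusted p = 0.237). AOS was thus on the higher side of its comparison group without diet and STZ and on the lower side with them in all 5 genes, none of which was called. These genes were chosen by the smallest interaction p on the lower side. That choice favours such opposite signs, so the shared pattern is only a description. Hsp90b1 was called in the interaction under both further scalings, without AOS 2 and without control 2 (adjusted p = 0.0333, 0.0452, 0.0422 and 0.0388), and its adjusted p was 0.544 without AOS 3.

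As lists, the plasma cell genes had a median of 0.92 without and -0.30 with diet and STZ, and 9 of 12 had an interaction on the lower side at unadjusted p under 0.05 (against 3.7% of all genes). The unfolded protein response genes had medians of 0.36 and -0.30, with 15 of 18 such members. ER translocation genes had 0.26 and -0.11 with 16 of 24, and ER to Golgi genes 0.20 and -0.05 with 11 of 20. Class I genes had 0.44 and -0.05 with 11 of 18. These last 3 lists were chosen after values were seen. The interaction subtracts the same AOS minus control differences in which all these lists were higher. The counts on its lower side are therefore only a description, those of the plasma cell and unfolded protein response lists included. In the HS libraries themselves the plasma cell list summed to 1820, 1256 and 1062 FPKM, and in HS_AOS to 1141, 917.8 and 1016. All 6 values lay above control 1 and control 3, and HS 1 was above every AOS library. Nr1d1 did not follow this pattern, with differences of 1.00 and 0.88 and an interaction of -0.12 (adjusted p = 0.962). Its mean was highest in HS_conFMT, a group without AOS (9.5 ± 1.06 FPKM), against 7.57 ± 1.29 in HS_AOS and 3.61 ± 0.283 in HS. The remaining higher interaction genes were Sord (-0.51 and 0.10), Anxa9, an annexin (-0.25 and 0.33), Zfp69, a zinc finger protein (-0.21 and 0.78), and Ap4b1, a subunit of the adaptor AP-4 (-0.12 and 0.42), with adjusted p of 0.326 to 0.402.

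**Figure D5:**
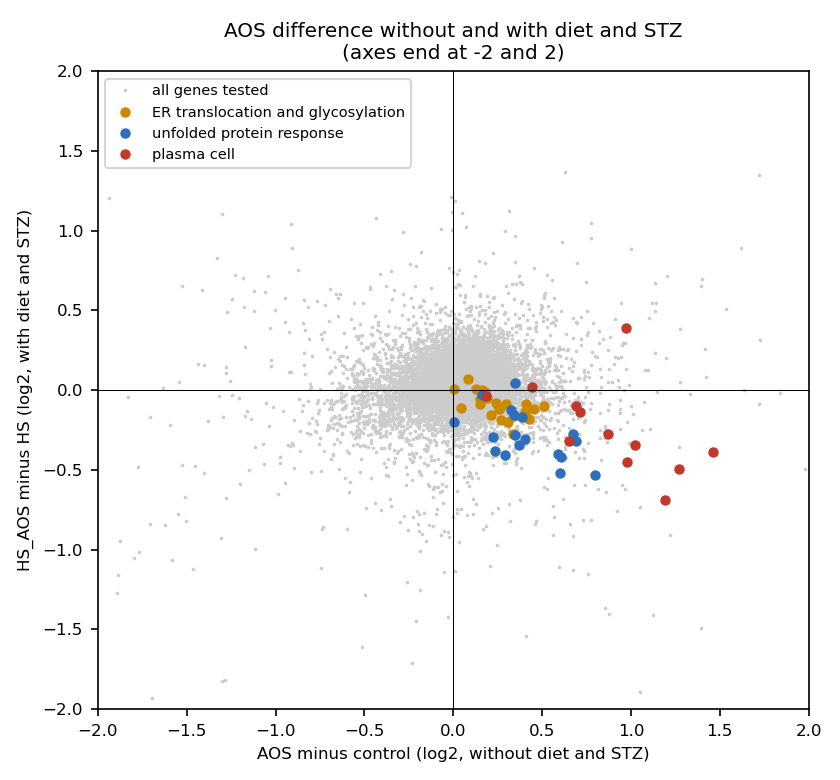
Each point is a tested gene, with the log2 difference AOS minus control on the x axis and HS_AOS minus HS on the y axis, both axes ending at -2 and 2 (26 genes lie outside). Most plasma cell (red), unfolded protein response (blue) and ER translocation (gold) genes lie to the right of 0 and below 0.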

How the data were processed

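Spleen RNA from 18 libraries (6 groups of 3) was sequenced, and 6 libraries are compared here. The authors deposited 1 table of normalized expression values per gene, which are read as FPKM from their values, since the file does not name the unit. Totals weighted by transcript length varied less between libraries (coefficient of variation 1.61%) than plain totals (6.14%), using GENCODE M21 lengths for 18762 symbols (97.1%). Bowtie 0.12.2 and mm10 are named in the submitters' processing notes, and for the gene counter and annotation the sources used here give no name. Of its entries, 418 were at 0 in all libraries and 26 symbols had been turned into dates and are never printed.

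Groups were taken from the sample titles. The test used log2(FPKM + 1) of all 18 libraries in limma 3.58.1 (R 4.3.3), with a term per group and eBayes set to trend and robust (residual degrees of freedom 12, prior 3.38), for genes of at least 1 FPKM in at least 3 libraries. Tests were two-sided and adjusted by Benjamini-Hochberg over all genes of a contrast, and the fit was tested on simulated data. Replicate numbers did not pair the libraries (closing section). The text names called genes without overlap of the groups or, with fewer than 5 in a direction, the 10 with the smallest p, then 5 per direction of the interaction and up to 4 members of each described list, except predicted genes and antigen receptor gene segments. The comparison, the 51 gene lists and the rules were chosen with earlier results of these data known, and 3 further lists after values were seen. Levels are mean FPKM ± SD (n = 3). Depth was estimated from the step of a single fragment in 26 to 48 genes with 1 transcript per library, so low values carry a counting error that was not modelled. Alternatives were other pseudocounts, filters, scalings, fits and left-out libraries.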

Additional observations from a re-analysis of the deposited data

Results flagged for a closer look

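The AOS difference in Kap, which passed the filter through the controls where it is high, was not the same without and with diet and STZ. The interaction was 3.63 on the log2 scale (adjusted p = 0.00195 by limma), because the 3 controls stood at 13.33 to 20.97 FPKM while the HS libraries, the comparison group under diet and STZ, stood at 0.31 to 1.67. The cause was not tested.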

How the results depend on the processing

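The Kap difference from control was called under every alternative run. The count of called genes in AOS against control, 1, was 2 with a pseudocount of 0.1 or 0.5 and with eBayes without trend and robust, 7 without the filter on low values, and 1 to 49 with 1 library left out. Genes higher at unadjusted p under 0.05 (1048) were 696 after scaling without haemoglobin genes, 664 when control 1, HS 1 and HS_AOS 1 were left aside together, and 591 to 1732 with 1 library left out. Genes lower (423) were 1023 without the filter, 665 after median-of-ratios scaling, 653 without haemoglobin genes, and 208 to 712 with 1 library left out. The interaction count, 1, was 0 with a pseudocount of 0.1, 2 under either scaling, and 1 to 8 with 1 library left out. Spib, a B cell factor with means of 123 ± 31.1 and 139 ± 11.1 FPKM, reversed from 0.21 to -0.0037 both without control 1 and without those 3 libraries together, and ran from -0.0037 to 0.37 with 1 library left out. Same-numbered AOS and control libraries had deviations that correlated at -0.355, 0.0928 and -0.000282, and 0 of 3 AOS libraries were closest to their own number; with the replicate number as a block limma called 1 gene over all groups (1166 higher and 453 lower unadjusted) and 1 in the 6 libraries alone (745 and 457). Of the named genes' values under alternatives, 2122 kept direction and side of the threshold, 39 passed it, 1 no longer did (the Kap interaction) and 2 reversed (Spib). The cause of these shifts was not tested. At a depth of 10100000 to 11200000 fragments, levels under 0.1 FPKM rest on few fragments, as do the somewhat higher levels of Akr1c21 and Acsm2.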
